A study of Homo sapiens with 3 samples.

Results

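RNA levels of 10 genes of gemcitabine uptake and deoxynucleotide metabolism were examined in the pancreatic cancer cell line MIAPaCa-2. The genes were SLC29A1, DCK, CDA, RRM1, RRM2, RRM2B, TYMS, DTYMK, SAMHD1 and TK1, chosen by name for what their products do, with earlier results of these data known, out of 14949 genes in the expression table. All 10 were in the table and passed the filter on low values. RNA sequencing had been carried out on 3 libraries. The first came from cells with a control short hairpin RNA (sh-CTL), and the next from cells with a hairpin against METTL3 (sh-METTL3), the gene for the methyltransferase that writes N6-methyladenosine (m6A) on mRNA. The remaining library came from control-hairpin cells given NMS-P937, an inhibitor of the mitotic kinase PLK1, at 80 nM over 24 h (sh-CTL + PLK1i). The first pair received no treatment per the labels, and no vehicle is named. All libraries thus came from hairpin-bearing cells of 1 established line, the METTL3 hairpin was 1 line, and whether it was a clone or a pool is not given in the sources used here. Each group held 1 library, so every difference is one between 2 libraries, with no replicate check and no p-value. Where 3 values are given without names they follow the order sh-CTL, sh-METTL3, sh-CTL + PLK1i.

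Gemcitabine is a deoxycytidine analogue and a standard drug in pancreatic cancer. It enters cells largely through the equilibrative nucleoside transporter encoded by SLC29A1, is phosphorylated first by deoxycytidine kinase (DCK), and is inactivated by cytidine deaminase (CDA). Its diphosphate inhibits ribonucleotide reductase (RRM1 with RRM2 or RRM2B), and its triphosphate competes with dCTP for incorporation into DNA. SAMHD1 acts on deoxynucleotide pools, and so do TYMS, DTYMK and TK1, on the thymidine side. No library was treated with gemcitabine.

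The libraries held 37449352, 46944892 and 47727493 reads in listed genes. METTL3 itself had normalized counts of 3939, 1651 and 3888, so the low value lay in the library labelled as the knockdown, at 41.9% of sh-CTL. PLK1 was at 64.9% of sh-CTL in sh-METTL3 and at 106% after the inhibitor. Of 8 epithelial markers, the keratins KRT8, KRT18 and KRT19 and the junction gene CLDN4 were in the table, whereas EPCAM, CDH1, KRT7 and CDH3 were not listed. VIM and ZEB1, which mark mesenchymal cells, were listed, and none of 7 markers of pancreatic acinar and islet cells was. Of the markers of other cell types, COL1A1, COL1A2 and CD68 were listed, with mean normalized counts of 26.1, 44452 and 2548. VIM averaged 225461 and KRT8 100398, not adjusted for gene length. The label of an epithelial cell therefore rested on keratins and CLDN4, without the defining adhesion genes.

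CDA was the gene that stood apart. Its RNA was 2.43 times as high in sh-METTL3 as in sh-CTL, while DCK was lower at 76.7% and TYMS was higher at 131%, and the other 7 genes lay between 84.8% and 107%. After PLK1 inhibition all 10 genes lay between 83.2% and 114% of sh-CTL, with SAMHD1 lowest and RRM2 highest. Changes are given as differences of log2(normalized count + 1), followed by the 95% interval that counting error alone allows.

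A gene was counted as different when its log2 change reached 0.32 in size (25% higher or 20% lower), called the fold threshold here. In sh-METTL3 against sh-CTL, 2 of the 10 genes were higher by this measure (CDA and TYMS), against 15.8% of all genes, and 1 was lower (DCK), against 14.5%. Read either way, 3 of 10 compared with 19.8% of the genes whose mean normalized count reached 200. CDA was also the 1 gene past a 2-fold rise, which 3.42% of all genes reached. In sh-CTL + PLK1i against sh-CTL none of the 10 was higher, where 10.2% of all genes were, and none was lower, where 11.5% were, the share either way being 10.3% of genes whose mean reached 200. With 10 genes, these counts are too few to set the group apart from the table in either comparison. Counting intervals are narrow at this depth, and many genes exceed them. Beyond counting error, 3 genes were higher in sh-METTL3 (27.1% of all genes) and 6 lower (28.2%). With the inhibitor, 1 was higher (23.1%) and 6 lower (22.8%). These shares also cover genes with few reads, whose intervals are wide, whereas CDA, the least abundant of the 10, averaged 350 normalized counts. No share matched for abundance was computed for this measure, so the counts of 6 cannot be read as an excess. The median log2 change over the 10 genes was -0.11 with the METTL3 hairpin and -0.15 with the inhibitor, against 0.00 over all genes in both. In size alone, the median change was 0.20 and 0.16, against 0.14 and 0.11 over the better measured genes, those whose mean reached 200. The sh-CTL library serves both comparisons, so a value that happened to be high there would lower both changes of a gene.

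**Figure D1:**
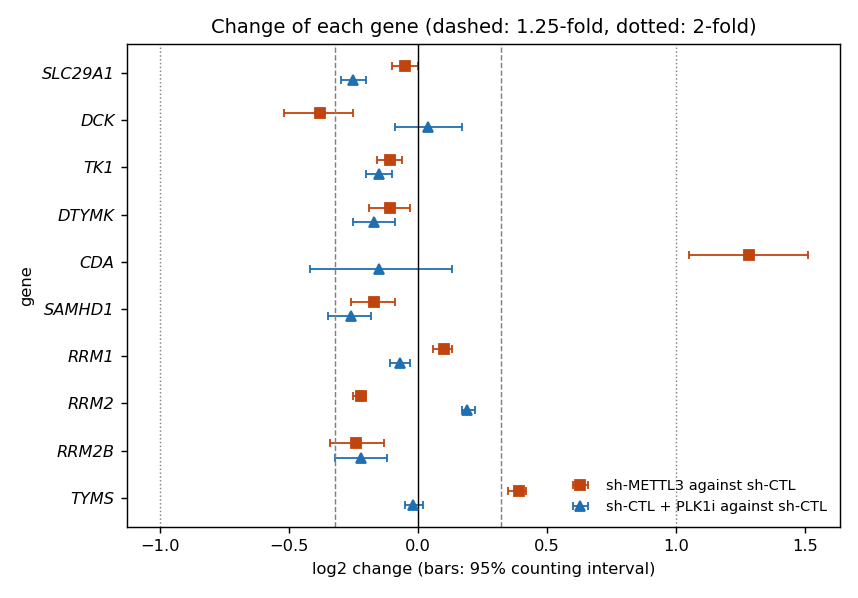
Log2 change of each of the 10 genes in sh-METTL3 (squares) and in sh-CTL + PLK1i (triangles) against sh-CTL, with bars for the 95% counting interval and vertical lines at no change, the fold threshold (dashed) and 2-fold (dotted). CDA in sh-METTL3 lies past the 2-fold line at 1.28, TYMS and DCK in sh-METTL3 lie past the dashed lines at 0.39 and -0.38, and every triangle lies inside the dashed lines.

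Promoter letters are given with DCK, CDA, RRM2 and TYMS, because these genes carried the differences between the libraries. The sequences are RefSeq, GRCh38.p14, plus strand, from 200 bases before the annotated start to 10 bases after it. Whole windows of 300 bases were searched on both strands for CCAAT, the box bound by the factor NF-Y, and for TTCCCGC, a core of sites bound by the E2F factors of the G1 to S transition. Of 35116 promoter windows, 34.6% held CCAAT and 6.55% held TTCCCGC. Among the 9 genes with a window in the table, CCAAT was in 5 (RRM1, RRM2, DTYMK, SAMHD1 and TK1) and TTCCCGC was in 5 (DCK, CDA, RRM1, TYMS and TK1). A gene counted if any of its windows held the letters, whereas the shares are per window. SLC29A1, RRM2 and TK1 had 2 windows each, and TK1 counted for both motifs through 1 window alone. RRM2B had no window.

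RNA of the main uptake carrier differed little between sh-METTL3 and sh-CTL and was somewhat lower after PLK1 inhibition. SLC29A1 (ENSG00000112759; GRCh37 chromosome 6, 44187290 to 44201879) encodes ENT1, the main carrier of gemcitabine into cells. It had 5339, 6499 and 5684 reads, or normalized counts of 6226, 6024 and 5233. The sh-CTL and sh-METTL3 values were close, and the sh-CTL + PLK1i value was the lowest. The log2 change was -0.05 (-0.10 to 0.00) in sh-METTL3 and -0.25 (-0.30 to -0.20) after PLK1 inhibition, so the latter exceeded counting error but not the fold threshold. Of its 24 nearest listed genes on chromosome 6, 23 had a higher change than SLC29A1 after PLK1 inhibition. The other equilibrative carriers were listed too. SLC29A2, which encodes ENT2, was at -0.27 in sh-METTL3 and at -0.34 (-0.53 to -0.16) in sh-CTL + PLK1i, with 492, 514 and 491 reads. SLC29A4, a carrier of monoamines and adenosine, was at -0.35 (-0.51 to -0.19) and -0.06. The concentrative carriers SLC28A1, SLC28A2 and SLC28A3 were not listed. SLC29A3, the lysosomal and mitochondrial carrier ENT3, went the other way in sh-METTL3, at 0.77 (0.47 to 1.10) with 126, 272 and 173 reads, and is named after its values were seen.

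**Figure D2:**
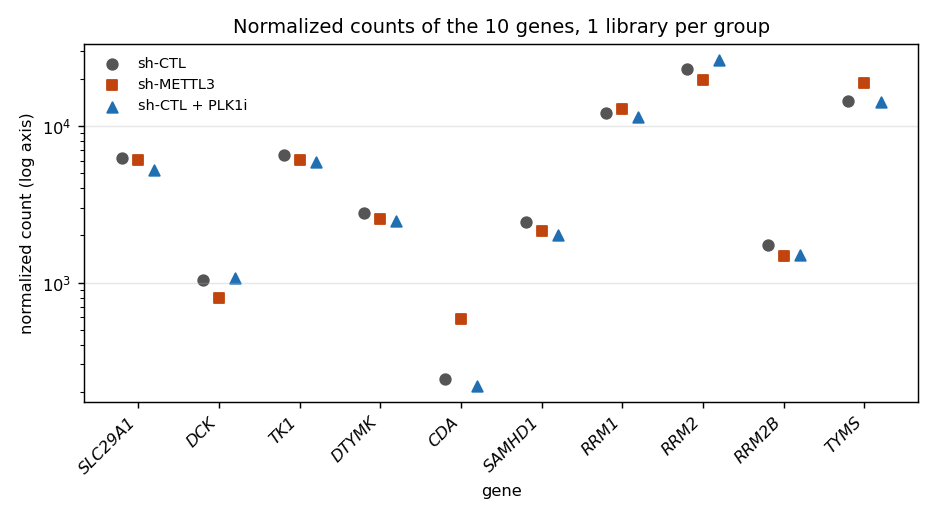
Normalized counts, on a log axis, of the 10 genes in sh-CTL (circles), sh-METTL3 (squares) and sh-CTL + PLK1i (triangles), 1 library each. The CDA square at 589 stands clear of the circle at 243 and the triangle at 219, whereas for the other genes the 3 symbols lie close together.

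Among the activating kinases, DCK was lower in sh-METTL3 and the thymidine-side kinases stayed under the fold threshold. DCK (ENSG00000156136; GRCh37 chromosome 4, 71858255 to 71896631) adds the first phosphate to gemcitabine and to deoxycytidine. It had 889, 858 and 1156 reads, and normalized counts of 1037, 795 and 1064. The sh-METTL3 value was thus the lowest, with the other pair nearly level. The DCK change was -0.38 (-0.52 to -0.25) in sh-METTL3 and 0.04 (-0.09 to 0.17) after PLK1 inhibition. Its interval in sh-METTL3 runs across the fold threshold. Of the 19 listed nucleoside and nucleotide kinases DCK had the lowest change in sh-METTL3, and AK1, an adenylate kinase, had the highest at 0.25 (0.15 to 0.34). MOB1B overlaps DCK on the same strand and was at 0.12 (0.02 to 0.22), so reads shared between them are uncertain. Mitochondrial deoxyguanosine kinase, DGUOK, which also phosphorylates deoxycytidine analogues weakly, was at 0.08 in sh-METTL3 and at 0.19 (0.09 to 0.28) after PLK1 inhibition, the highest of the kinases there. NME3, a nucleoside diphosphate kinase, was the lowest there at -0.20 (-0.38 to -0.02).

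The DCK window (chr4:70993449-70993658) held TTCCCGC at -192 and, on the other strand, at -88, in capitals, counted from the annotated start to the first letter.
DCK promoter: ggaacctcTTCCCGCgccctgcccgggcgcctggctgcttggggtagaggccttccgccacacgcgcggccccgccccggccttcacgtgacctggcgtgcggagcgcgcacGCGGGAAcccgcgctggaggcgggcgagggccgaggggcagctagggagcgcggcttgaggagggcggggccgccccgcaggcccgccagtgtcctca

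TK1, the cytosolic thymidine kinase of S phase (ENSG00000167900; GRCh37 chromosome 17, 76170172 to 76183314), had 5617, 6539 and 6404 reads. Its normalized counts were 6550, 6061 and 5896, highest in sh-CTL, and its changes were -0.11 (-0.16 to -0.06) and -0.15 (-0.20 to -0.10). DTYMK, thymidylate kinase (ENSG00000168393; GRCh37 chromosome 2, 242615162 to 242626359), makes dTDP from the dTMP that TK1 and TYMS provide. Its 2375, 2766 and 2676 reads gave normalized counts of 2769, 2564 and 2464, again highest in sh-CTL. The DTYMK changes were -0.11 (-0.19 to -0.03) in sh-METTL3 and -0.17 (-0.25 to -0.09) after PLK1 inhibition. For both genes the knockdown and the inhibitor library did not differ beyond counting error, with log2 differences of 0.04 (-0.01 to 0.09) for TK1 and 0.06 (-0.02 to 0.13) for DTYMK.

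The inactivating enzyme CDA showed the largest difference of the 10 genes. CDA (ENSG00000158825; GRCh37 chromosome 1, 20915579 to 20945396) deaminates gemcitabine to its difluorouridine form and is the main route of its loss. Its reads numbered 208 in the control, 635 in the knockdown and 238 after the inhibitor. Normalized counts were 243, 589 and 219, so sh-METTL3 was alone at the high level. The change was 1.28 (1.05 to 1.51) in sh-METTL3, and -0.15 (-0.42 to 0.13) after PLK1 inhibition, within counting error. Set against the inhibitor library, the knockdown was higher by 1.42 (1.21 to 1.65). In sh-METTL3 against sh-CTL, CDA lay at the 97.8th percentile of all changes in the table. CDA was also the least abundant of the 10 genes in sh-CTL by reads, so its intervals are the widest. Its transcript is short and held 3 copies of GGACT, the preferred letters of m6A sites, in 809 bases of the MANE Select transcript. That is 3.71 per kilobase against a median of 0.926 over 11892 genes. In all, 4 of the 10 genes were above that median, and DTYMK held none. Beside CDA these were SAMHD1 at 1.51, RRM2B at 1.47 and RRM1 at 1.27 per kilobase. Their changes in sh-METTL3 were -0.17, -0.24 and 0.10. TYMS at 0.620 and DCK at 0.399, also past the fold threshold, were below the median. A link between these letters and the changes was not tested. Methylation was not measured in these libraries.

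The CDA window (chr1:20588897-20589106) held TTCCCGC at -2, across the annotated start, and no CCAAT.
CDA promoter: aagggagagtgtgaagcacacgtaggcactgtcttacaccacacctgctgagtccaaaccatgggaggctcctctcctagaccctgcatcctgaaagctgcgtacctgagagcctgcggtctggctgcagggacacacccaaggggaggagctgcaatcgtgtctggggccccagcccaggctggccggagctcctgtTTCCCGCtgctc

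No gene near CDA moved as far upward. Of its 24 nearest listed genes, within 2.69 Mb, 14 were above 0 and 10 below in sh-METTL3, and the median was 0.05. None was higher than CDA, but the highest, at 1.14, was also past 2-fold and lay inside the counting interval of CDA. Its 6 nearest ran from CAMK2N1, an inhibitor of CaM kinase II, at -1.06 to PINK1, the mitochondrial quality-control kinase, at 0.40. Within the list of deaminases, nucleotidases and breakdown enzymes, 17 genes were listed. In sh-METTL3 1 of them was higher by the fold threshold (15.8% of all genes), CDA itself, and 2 were lower (14.5%). The lower pair was UPP1, uridine phosphorylase, at -1.07 (-1.26 to -0.88), and NT5M, a mitochondrial deoxynucleotidase with 174 and 118 reads, at -0.89 (-1.24 to -0.55), the latter named after its values were seen. UPP1 had 608, 365 and 880 reads. It lies on chromosome 7, where the median over 632 genes whose mean reached 50 was -0.25 with the METTL3 hairpin and 0.01 with the inhibitor. Its 24 nearest genes were at a median of -0.34 in sh-METTL3. After PLK1 inhibition PNP, purine nucleoside phosphorylase, was the highest gene of this list at 0.49 (0.43 to 0.54), with 4085, 6333 and 7263 reads, and no gene of the list was lower by the fold threshold.

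SAMHD1 (ENSG00000101347; GRCh37 chromosome 20, 35518632 to 35580296) is a triphosphohydrolase that degrades dNTPs and also hydrolyses the active triphosphate of some cytidine analogues. It had 2075, 2317 and 2188 reads. The normalized counts were 2420, 2148 and 2014, lowest after PLK1 inhibition. Its changes of -0.17 (-0.26 to -0.09) and -0.26 (-0.35 to -0.18) exceeded counting error but stayed under the fold threshold. SAMHD1 is also known as an interferon-induced gene in some cells. Of 18 listed interferon response genes, 12 were higher by the fold threshold in sh-METTL3 (15.8% of all genes) and 1 was lower (14.5%), from BST2 at -2.99 to OAS1 at 1.63, with a median of 0.43. After PLK1 inhibition 9 were higher (10.2% of all genes) and none lower (11.5%), with IFIT3 highest at 0.98 and a median of 0.31. SAMHD1 was at -0.17 and -0.26. The part of an interferon response in its values was not tested.

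Ribonucleotide reductase, the target of gemcitabine diphosphate, makes the deoxynucleotides for DNA synthesis and is built of the large subunit RRM1 and a small subunit, RRM2 in cycling cells or RRM2B, which is induced by DNA damage. The small subunit RRM2 was lowest in sh-METTL3 and highest after PLK1 inhibition, whereas RRM1 was slightly highest in sh-METTL3. RRM2 (ENSG00000171848; GRCh37 chromosome 2, 10260825 to 10351851) had 19680, 21211 and 28524 reads. Its normalized counts were 22949, 19660 and 26260, the highest of the 10 genes in each library. The RRM2 change was -0.22 (-0.25 to -0.20) in sh-METTL3 and 0.19 (0.17 to 0.22) after PLK1 inhibition. Set against each other, sh-METTL3 was at 74.9% of sh-CTL + PLK1i for RRM2, a log2 difference of -0.42 (-0.44 to -0.39). In this direct comparison CDA and TYMS were higher by the fold threshold (19.8% of all genes), DCK and RRM2 were lower (18.2%), and CDA was again the 1 gene 2-fold higher (3.87%).

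The RRM2 window (chr2:10122539-10122748) held CCAAT 3 times, at -123, -93 and -66, each followed by the same letters, and no TTCCCGC.
RRM2 promoter: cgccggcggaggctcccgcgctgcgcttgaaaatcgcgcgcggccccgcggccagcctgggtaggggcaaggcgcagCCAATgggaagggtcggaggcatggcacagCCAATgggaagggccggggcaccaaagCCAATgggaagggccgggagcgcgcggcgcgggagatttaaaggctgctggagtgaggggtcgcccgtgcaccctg

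RRM1 (ENSG00000167325; GRCh37 chromosome 11, 4115937 to 4160162) had 10300, 13846 and 12406 reads. The highest of the normalized counts of 12011, 12834 and 11421 was 1.12 times the lowest, and the changes were 0.10 (0.06 to 0.13) and -0.07 (-0.11 to -0.03). RRM2B (ENSG00000048392; GRCh37 chromosome 8, 103216730 to 103251189) had 1489, 1589 and 1618 reads. With normalized counts of 1736, 1473 and 1490 it was highest in sh-CTL, and its changes were nearly equal, at -0.24 (-0.34 to -0.13) and -0.22 (-0.32 to -0.12).

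The redox partners that feed electrons to the reductase were listed as well. TXNRD1, thioredoxin reductase, was the highest of the 6 genes of this list in both comparisons, at 0.37 (0.35 to 0.40) in sh-METTL3 and 0.55 (0.52 to 0.58) after PLK1 inhibition, from 15914, 25952 and 29469 reads. GLRX, glutaredoxin, had 110, 150 and 101 reads and was at -0.46 (-0.87 to -0.06) after PLK1 inhibition, and is named after its values were seen. None of the 3 reductase genes reached the fold threshold in either comparison with sh-CTL.

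TYMS was, beside CDA, the other gene past the fold threshold upward in sh-METTL3. TYMS (ENSG00000176890; GRCh37 chromosome 18, 657653 to 673578) encodes thymidylate synthase, which makes dTMP from dUMP with a folate cofactor and is the target of 5-fluorouracil. It had 12403, 20396 and 15547 reads. The normalized counts were 14463, 18905 and 14313, so sh-CTL and sh-CTL + PLK1i were level and sh-METTL3 stood above both. The change was 0.39 (0.35 to 0.42) in sh-METTL3 and -0.02 (-0.05 to 0.02) after PLK1 inhibition.

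The neighbourhood of TYMS moved with it. Of its 24 nearest listed genes on the short arm of chromosome 18, 23 were above 0 in sh-METTL3, their median was 0.31, and 9 were higher than TYMS. TYMS minus that median was 0.08, and against the 50 nearest genes, whose median was 0.39, the difference was 0.00. After PLK1 inhibition the median of the 24 genes was 0.06. Its 6 nearest were all above 0 in sh-METTL3, among them THOC1, of the THO complex of mRNA export, at 0.43, USP14, a deubiquitinase of the proteasome, at 0.23, and YES1, a Src-family kinase, at 0.21. These 6 nearest also include the genes that overlap TYMS on the other strand. They were ENOSF1 at 0.42 (0.33 to 0.51) and the long noncoding RNA TYMSOS at 0.87 (0.61 to 1.14) from 170 and 391 reads. The library kit keeps strand, but the strand setting of the counting is not given in the sources used here, so these reads cannot be told apart with certainty. The part of the neighbourhood in the TYMS value was not tested.

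The TYMS window (chr18:657453-657662) held TTCCCGC at -39, on the other strand, and no CCAAT.
TYMS promoter: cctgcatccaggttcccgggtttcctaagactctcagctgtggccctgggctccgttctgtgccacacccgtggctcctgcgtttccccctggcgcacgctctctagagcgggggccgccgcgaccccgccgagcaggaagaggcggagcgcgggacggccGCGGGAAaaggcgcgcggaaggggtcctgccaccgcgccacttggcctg

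**Figure D3:**
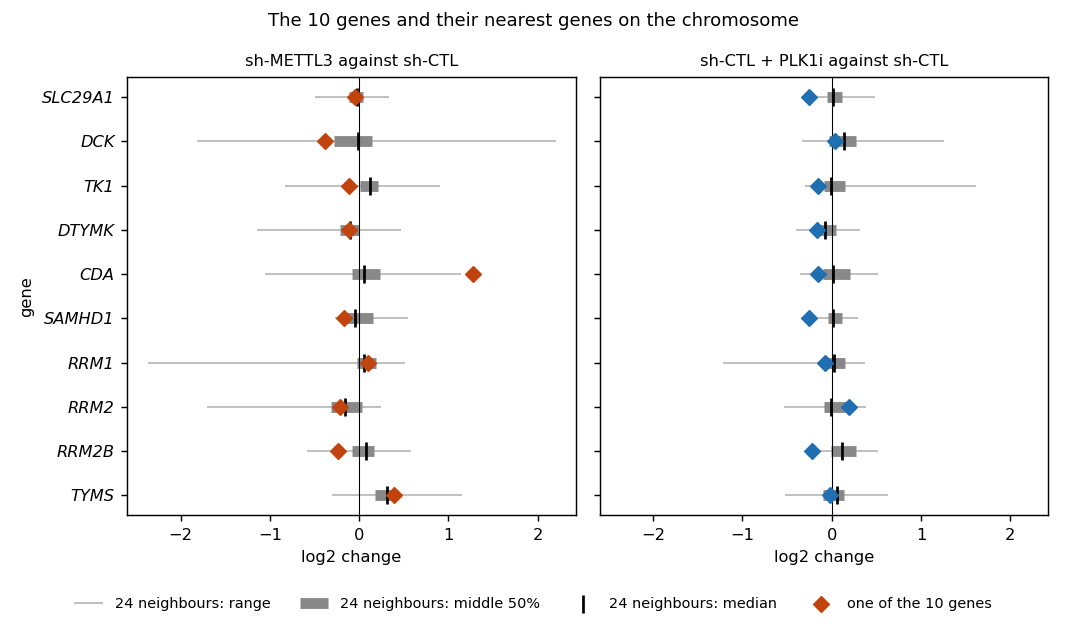
Log2 change of each of the 10 genes (diamonds) beside its 24 nearest listed genes on the same chromosome, shown as median (tick), middle 50% (thick bar) and range (thin line), for sh-METTL3 on the left and sh-CTL + PLK1i on the right. CDA lies past the upper end of the range of its neighbours, 1.14, in sh-METTL3, while the TYMS diamond lies on the shifted bar of its own.

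The same comparison with neighbours was made for the other genes. In sh-METTL3 the change minus the median of the 24 nearest genes was -0.37 for DCK, -0.32 for RRM2B, -0.23 for TK1 and -0.12 for SAMHD1. It was nearer to 0 for RRM2 at -0.07, RRM1 at 0.05, SLC29A1 at -0.02 and DTYMK at -0.01. Against the 50 nearest genes RRM2 was at -0.18, level with TK1 at -0.17 and SAMHD1 at -0.15. The RRM2 neighbours were themselves at a median of -0.16, with 17 of 24 below 0. DCK has neighbours that spread widely, from -1.82 to 2.20, and 6 of them were lower than DCK. After PLK1 inhibition no neighbourhood median of the 10 genes lay further from 0 than 0.14, and the differences furthest from 0 were RRM2B at -0.34, SAMHD1 at -0.28, SLC29A1 at -0.26 and RRM2 at 0.20.

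Within each library, pairs of genes with opposed roles or from the same enzyme were set against each other as ratios of reads, which need no scaling between libraries. Ratios between genes also reflect their lengths, so they are compared across libraries only. They are ratios of RNA, and protein, enzyme activity and drug response were not measured in these libraries. The ratio of CDA to DCK, inactivation against activation, was 0.234 (0.200 to 0.272), 0.740 (0.667 to 0.821) and 0.206 (0.178 to 0.237). The intervals of sh-CTL and sh-CTL + PLK1i overlapped, and that of sh-METTL3 lay above both. RRM2 to RRM1 took a different order, with 1.91 (1.87 to 1.96), 1.53 (1.50 to 1.57) and 2.30 (2.25 to 2.35), and no intervals overlapped. RRM2B to RRM2 was 0.0757 (0.0717 to 0.0798), 0.0749 (0.0711 to 0.0788) and 0.0567 (0.0539 to 0.0596), lower in the last alone. SAMHD1 to RRM1, dNTP removal against dNTP supply, was 0.201 (0.192 to 0.211), 0.167 (0.160 to 0.175) and 0.176 (0.168 to 0.185), lower in the last pair, whose intervals overlapped each other.

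**Figure D4:**
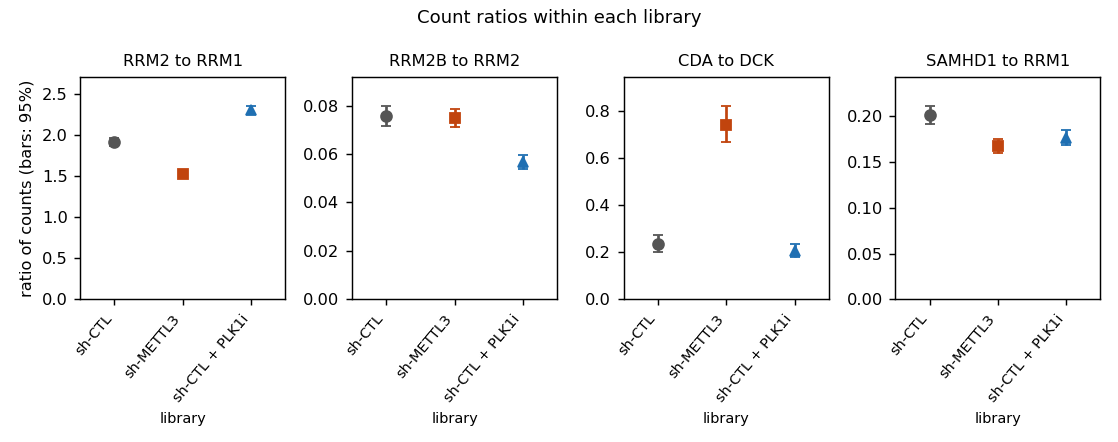
Ratios of read counts of 2 genes within each library, for RRM2 to RRM1, RRM2B to RRM2, CDA to DCK and SAMHD1 to RRM1, with bars for the 95% counting interval and each vertical axis starting at 0. CDA to DCK is high in sh-METTL3 alone at 0.740, and RRM2 to RRM1 is lowest there at 1.53 and highest in sh-CTL + PLK1i at 2.30.

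Levels of the 10 genes were compared with each other per kilobase of annotated exon, on the normalized count scale. In sh-CTL the order from high to low was TYMS at 5974, TK1 at 3550, RRM1 at 2837, RRM2 at 2507, SLC29A1 at 1449, DTYMK at 1154, DCK at 334, RRM2B at 322, CDA at 296 and SAMHD1 at 223. All were above the median of the listed genes, 175 per kilobase. The counting intervals of DCK (312 to 357), RRM2B (306 to 339) and CDA (257 to 339) overlapped, so their order is not resolved even by counting. In sh-METTL3 CDA stood at 718 per kilobase, above DCK at 256 and RRM2B at 273. The order depends on the length used. For RRM2, annotated exons span 9153 bases and the MANE Select transcript 3258. On the latter it stood at 7044 per kilobase, below TYMS at 8967 and above TK1 at 4577. The bottom of the order turned too, with SAMHD1 at 520 per kilobase of MANE Select transcript, above DCK at 414, RRM2B at 364 and CDA at 300, which was then the lowest.

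The wider pathway was covered by 7 lists with 81 genes, of which 76 were listed and 66 were not among the 10. In sh-METTL3 2 of these 66 were higher by the fold threshold (3.03%) and 6 were lower (9.09%), both below the shares over all genes (15.8% and 14.5%). Those shares include genes with few reads. Among genes whose mean reached 200, 19.8% were different either way. The higher pair was SLC29A3 and TXNRD1. Of the 6 lower genes, UPP1, IMPDH1 and SLC29A4 lie on chromosome 7, and all 5 of the 66 genes on that chromosome were below 0. The median over 632 genes of that chromosome was -0.25. Without chromosome 7, 2 of 61 were higher (3.28%) and 3 lower (4.92%). The lower genes were NT5M, GGH and, named after its values were seen, the mitochondrial adenylate kinase AK4 at -0.35. IMPDH1, a rate-limiting enzyme of guanine nucleotide synthesis, had 4989, 3291 and 6833 reads, a change of -0.93 in sh-METTL3 whose counting interval came no nearer to 0 than -0.87. Its 24 nearest genes were at a median of -0.18, and all of them were higher than IMPDH1. GGH, which removes glutamates from folates, was the lowest gene of the thymidylate and folate list at -0.44 (-0.55 to -0.32), and TYMS the highest.

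After PLK1 inhibition 2 of the 66 genes were higher (3.03%, against 10.2% of all genes) and 3 lower (4.55%, against 11.5%). Among genes whose mean reached 200, 10.3% were different either way. TXNRD1 and PNP were the higher pair, and GLRX and SLC29A2 were among the lower. The de novo pyrimidine list held no gene past the fold threshold in either comparison, with CTP synthase CTPS2 lowest at -0.22 in sh-METTL3 and -0.21 after PLK1 inhibition. Its highest genes were DHODH at 0.18 in sh-METTL3 and UMPS at 0.12 after PLK1 inhibition. In the purine list the highest were PRPS2 at 0.24 (0.20 to 0.28) in sh-METTL3 and PPAT at 0.12 after PLK1 inhibition, where ADSL was lowest at -0.16.

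**Figure D5:**
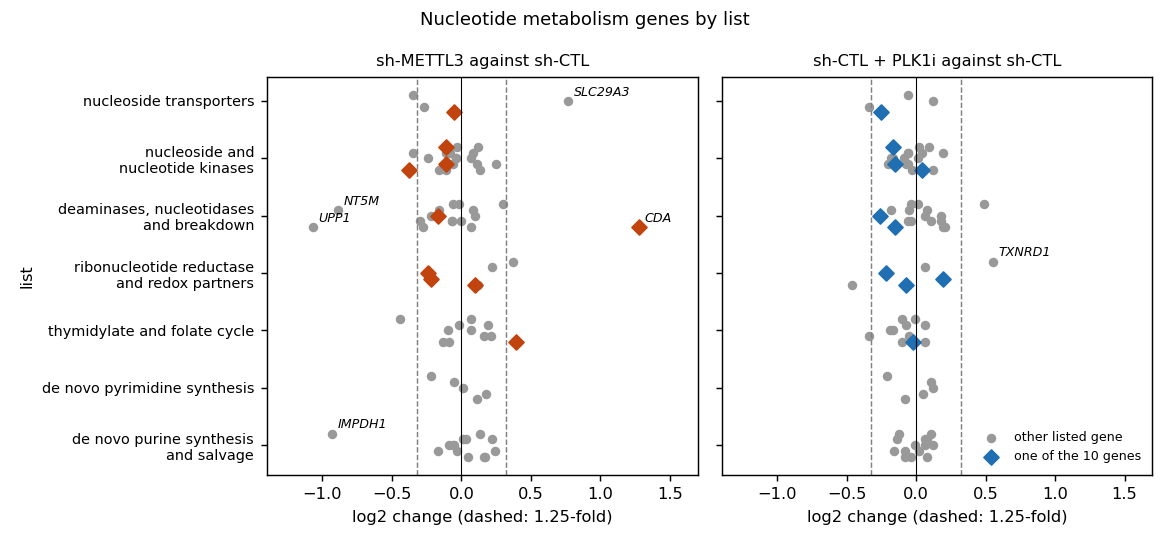
Log2 change of each listed gene of nucleotide metabolism by list, for sh-METTL3 on the left and sh-CTL + PLK1i on the right, with diamonds for the 10 genes, grey points for the other 66 and dashed lines at the fold threshold. In sh-METTL3 CDA at 1.28 is far right and UPP1, IMPDH1 and NT5M are far left, and in sh-CTL + PLK1i most points lie inside the dashed lines.

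Several of the 10 genes are expressed mainly in S phase, so cell cycle lists were read beside them. Of 20 S phase genes, none was past the fold threshold in sh-METTL3 (15.8% of all genes higher, 14.5% lower), where the median was -0.02 and the range ran from CCNA2 at -0.25 to MCM3 at 0.20. After PLK1 inhibition none was higher (10.2% of all genes) and 5 were lower (11.5%), E2F1 and the helicase subunits MCM3, MCM4, MCM5 and MCM6. The range ran from E2F1 at -0.40 to CCNE1 at 0.21, with a median of -0.18. Of the 10 genes 8 were below 0 in that comparison, where the median over all genes was 0.00. CDA at -0.15 and TYMS at -0.02 were among these 8 but within counting error. DCK at 0.04, also within counting error, and RRM2 at 0.19 were above 0. In sh-METTL3, where the S phase median was -0.02, 7 of the 10 were below 0, SLC29A1 within counting error. Both comparisons share the sh-CTL library. Of 14 G2 and M phase genes, 1 was lower in sh-METTL3 (14.5% of all genes), PLK1 itself at -0.62, and the highest was BUB1 at 0.24, with a median of 0.06. After PLK1 inhibition 1 was higher (10.2% of all genes) and 2 were lower (11.5%; TOP2A and CDK1), from TOP2A at -0.55 to AURKA at 0.36, with a median of -0.02. Members of these cell cycle lists other than the extremes are named after their values were seen. The part of the cell cycle in the values of the 10 genes was not tested. In bulk RNA, more cells in a phase and more RNA per cell cannot be told apart.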

How the data were processed

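RNA sequencing of 3 MIAPaCa-2 libraries (TruSeq stranded mRNA) was analysed. The submitters' processing notes name FastQC 0.11.9, STAR 2.7.10, RSEM 1.3.3 and hg19, without role or order. The authors deposited 1 table of log2 values with a minimum of 2. Their normalization tool, annotation, strand setting and filter on genes are not given in the sources used here. The values followed log2 of a scaled count plus 4, in which a single read stood for 1.17, 0.927 and 0.921 (sh-CTL, sh-METTL3, sh-CTL + PLK1i). Dividing by these steps gave whole counts: between 1 and 2000 reads, 100% of values came within 0.1 of an integer (10708, 9950 and 9848 genes). If RSEM made them, they are rounded expected counts. A count of the 10 genes may be off by up to 0.99 reads from rounding. Size factors were 0.858, 1.08 and 1.09. Column names held an abbreviation of each sample title, which tied columns to samples; groups came from the titles.

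Changes are differences of log2(normalized count + 1), which understates those of low genes. A filter on a mean normalized count of at least 1 removed 0 genes. The 95% intervals of a change are exact (Clopper-Pearson on 2 counts given their sum), scaled by size factors. For levels per kilobase they are exact Poisson intervals. All cover counting error only: reads amplified by PCR and carrying no molecular identifier are not independent. With 1 library per group, no test was run. Counts of genes past a threshold are read against shares over all 14949 genes, which include genes with few reads.

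Positions came from GENCODE 44 mapped to GRCh37, with 14858 gene identifiers found, and promoter letters from RefSeq on GRCh38.p14. Neighbours were the 24 nearest listed genes whose mean reached 50. The 10 genes and all lists were chosen with earlier results of these data known. Named genes were the 10, METTL3 and PLK1; from each pathway list, those 2-fold different in either comparison with sh-CTL (mean 50 or more) and the largest rise and fall (mean 200 or more); and the extremes of the context lists. Some genes and 1 list that the rule selects are not reported here. Calculations used Python 3.11.15, numpy 2.4.6, pandas 2.3.3 and scipy 1.17.1 and were tested on simulated data. Alternatives varied pseudocount, scaling, filter, GC and length correction, rounding, neighbours and gene length.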

Additional observations from a re-analysis of the deposited data

How the results depend on the processing

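Each change of the 10 genes was recomputed under 8 alternatives: pseudocounts of 0.5 and 4, median-of-ratios, upper-quartile and total-count scaling, centring on genes with a mean of at least 500, unrounded values, and removal of a linear trend on GC content and length. Of 240 recomputed changes over 3 comparisons, 237 stayed inside their main counting interval. The other 3 came from upper-quartile scaling in sh-METTL3 against sh-CTL + PLK1i, with RRM1 at 0.21, RRM2 at -0.38 and TYMS at 0.44. The change of CDA in sh-METTL3 against sh-CTL was at least 1.26, that of DCK ran from -0.40 to -0.36 and that of TYMS from 0.38 to 0.41. No change past the fold threshold reversed. The number of the 10 genes past it, and past 2-fold, was identical under all 8 alternatives in each comparison. The median over the 10 genes moved by at most 0.02 in the comparisons with sh-CTL. Of the 76 pathway genes, the number past the threshold was 8 to 12 in sh-METTL3, against 11 as reported, and 4 or 5 with PLK1 inhibition, the ranges including the filters and the count without chromosome 7. Requiring a mean of at least 200 lowered the share of all genes at least 2-fold different to 2.17% (sh-METTL3) and 0.241% (sh-CTL + PLK1i). With 50 neighbours in place of 24, 16 of 20 differences from the neighbours moved by less than counting error, and in sh-METTL3 RRM2 then lay 0.18 below its neighbours. Levels per kilobase depended on the length, with 54 of 60 recomputed levels beyond counting error. The MANE Select lengths and the count without chromosome 7 were chosen after seeing the data. No paired analysis was possible because each group held 1 library, and no replicate could be left out. Variation between cultures was not measured, so no counting interval bounds it.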
